A study of Mus musculus with 8 samples.

Results

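Trophectoderm is the outer epithelium of the blastocyst and the source of the placenta, and a small set of transcription factors sets up and keeps this lineage apart from the pluripotent inner cells. The genes described here are 9 such factors, picked by symbol but with earlier results of these data known. They are the caudal homeobox factor Cdx2, the GATA zinc finger factors Gata2 and Gata3, the AP-2 factors Tfap2a and Tfap2c, the ETS family members Elf3, Elf5 and Ets2, and the basic helix-loop-helix factor Hand1. All 9 were found among the 55335 genes counted, and 7 of them were among the 16504 genes that passed the filter on low counts, with Elf5 and Hand1 below it.

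RNA-seq of polyadenylated RNA was done on E14, a line of mouse embryonic stem cells (ESCs), which was grown with LIF and inhibitors of the kinases MEK and GSK3. Cells carried a lentiviral short hairpin RNA (shRNA) and were selected with puromycin, in 4 groups of 2 biological replicates. The control group (NG) carried a scrambled shRNA, and the others an shRNA against Sox2 (shSox2, here Sox2-KD), Hnrnpk (shHnrnpk, hnRNPK-KD) or Cdk9 (shCdk9, Cdk9-KD), where KD stands for knockdown. All groups thus share the line, the medium, the vector and the selection, and which of the study's 2 shRNAs for a gene a library received is not given in the sources used here. SOX2 is a core pluripotency factor, hnRNPK an RNA-binding protein, and CDK9 the kinase that releases paused RNA polymerase II.

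The libraries held 16709201 to 17719366 counts each, and with TMM scaling 1 CPM, a count in every 1000000, stands for 16.91 to 18.2 reads. The Sox2 mRNA had a level of 320 and 284 CPM in Sox2-KD against 412 and 530 CPM in control, a log2 fold change (log2FC) of -0.64 (SE 0.16, edgeR adjusted p = 0.0479). The Cdk9 mRNA had a level of 73.1 and 53.2 CPM in Cdk9-KD against 109 and 129 CPM, a log2FC of -0.91 (SE 0.18, edgeR adjusted p = 0.0985). The Hnrnpk mRNA was at 697 CPM in replicate 1 but at 1140 CPM in replicate 2 of the group labelled hnRNPK-KD, against 1090 and 1130 CPM in control. Replicate 2 therefore goes against its label, and the group is called the libraries labelled hnRNPK-KD. The 12 pluripotency markers summed to 6780 to 9250 CPM in every library, which shows that such genes were expressed in all groups. A sum of this kind does not settle the state of the cells. These bulk values also cannot tell more cells that express a gene from more RNA per cell.

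In ESCs, SOX2 binds DNA together with OCT4, a POU factor that reads the octamer ATGCAAAT, and the pair keeps lineage genes in check while pluripotency genes are active. In the embryo, TEAD4 turns on Cdx2 and Gata3 in the outer cells, and CDX2 opposes the pluripotency factors. TFAP2C and ELF5 take part in the trophoblast stem cell circuit with EOMES. HAND1 acts later, in the formation of trophoblast giant cells. To show where such factors could bind, RefSeq promoter windows (GRCm38.p6, 250 bases before to 50 after the start of a transcript) were read for the 7 members with an entry, 10 windows in all. Tfap2c and Hand1 had none.

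The octamer ATGCAAAT, searched on both strands, stood in 2 of the 10 windows, those of Cdx2 and Elf3, and in 1.74% of the 32817 windows of all genes. It began 147 bases before the start site of Cdx2 and 148 bases before that of Elf3. The words were chosen with the members' windows in view, so that these counts are a description. The window of Cdx2 is chr5:147307200-147307499 and that of Elf3 is chr1:135258423-135258722, both read on the - strand from 5′ to 3′, with the octamer in capitals:
Cdx2: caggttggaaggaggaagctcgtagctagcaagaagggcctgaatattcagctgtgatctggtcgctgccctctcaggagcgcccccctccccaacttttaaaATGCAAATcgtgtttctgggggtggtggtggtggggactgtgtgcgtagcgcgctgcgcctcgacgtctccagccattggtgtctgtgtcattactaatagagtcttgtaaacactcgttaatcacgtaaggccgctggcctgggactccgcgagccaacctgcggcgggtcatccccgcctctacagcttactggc
Elf3: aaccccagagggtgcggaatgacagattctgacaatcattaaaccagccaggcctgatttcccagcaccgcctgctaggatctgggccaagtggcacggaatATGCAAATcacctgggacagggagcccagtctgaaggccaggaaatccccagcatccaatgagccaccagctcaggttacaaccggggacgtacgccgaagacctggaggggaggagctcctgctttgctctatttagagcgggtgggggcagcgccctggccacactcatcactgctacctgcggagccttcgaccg

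The AP-2 word GCCNNNGGC, searched on both strands, stood in 3 of the 10 windows, in 1 copy for Cdx2 and the downstream window of Gata2 and in 3 copies for Gata3, and in 16.6% of all windows. The windows of the GATA pair, the members that were higher in Sox2-KD cells, are shown with this word in capitals. That of Gata3 is chr2:9878551-9878850 on the - strand and that of Gata2 is chr6:88198414-88198713 on the + strand:
Gata3: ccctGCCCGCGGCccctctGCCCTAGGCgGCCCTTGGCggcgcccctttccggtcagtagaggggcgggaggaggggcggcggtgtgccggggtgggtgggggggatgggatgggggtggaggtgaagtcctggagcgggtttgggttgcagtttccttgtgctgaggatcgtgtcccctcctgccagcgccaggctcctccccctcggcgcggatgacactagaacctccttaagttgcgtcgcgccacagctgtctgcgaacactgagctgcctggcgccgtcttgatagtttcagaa
Gata2: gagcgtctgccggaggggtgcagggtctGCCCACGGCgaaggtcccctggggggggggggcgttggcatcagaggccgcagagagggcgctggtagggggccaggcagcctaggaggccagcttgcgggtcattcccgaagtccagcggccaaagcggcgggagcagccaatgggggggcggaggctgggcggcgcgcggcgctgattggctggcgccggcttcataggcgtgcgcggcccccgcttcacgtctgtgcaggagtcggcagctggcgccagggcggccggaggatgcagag

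The SOX words CATTGT or CTTTGT stood in 1 of the 10 windows, an Elf5 window, and in 28.6% of all windows. The GATA words, which are AGATAA or AGATAG and TGATAA or TGATAG, stood in 2 of the 10, 1 of Gata3 and 1 of Elf5, and in 29.8% of all windows. In the members' windows no match of a word overlapped that of another.

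Per kilobase of exon, the factors differed widely in level in control ESCs. Elf3, an epithelial ETS factor, was the most abundant at 62.5 ± 10.5 CPM per kilobase (SD, n = 2). Cdx2 followed at 12.1 ± 4.78 and Tfap2c at 11.7 ± 0.0769, and the ranges of these neighbours overlapped. Ets2 was at 7.01 ± 0.979, Tfap2a at 1.71 ± 0.956 and Gata2 at 0.624 ± 0.417 CPM per kilobase, without overlap between neighbours. Hand1 at 0.0714 ± 0.0612 and Gata3 at 0.0571 ± 0.0196 overlapped, and Elf5 was last at 0.00479 ± 0.00677.

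In Sox2-KD cells the order of these levels was changed in its middle. Elf3 stayed on top with 47.4 CPM per kilobase in both libraries, and Tfap2c came next at 8.32 ± 0.73 (SD, n = 2). Ets2 at 3.13 ± 0.612, Cdx2 at 2.72 ± 0.0375, Gata2 at 2.27 ± 0.249 and Tfap2a at 2.14 ± 1.1 then lay close together, and of these neighbours only Cdx2 and Gata2 did not overlap. Gata3 at 0.655 ± 0.0871 and Hand1 at 0.411 ± 0.347 stood below them, with ranges that overlapped. In the Cdk9-KD libraries Tfap2c, at 2.84 ± 1.02, stood below Ets2, at 4.39 ± 0.428, and overlapped Tfap2a, at 3.32 ± 0.692 CPM per kilobase.

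**Figure D1:**
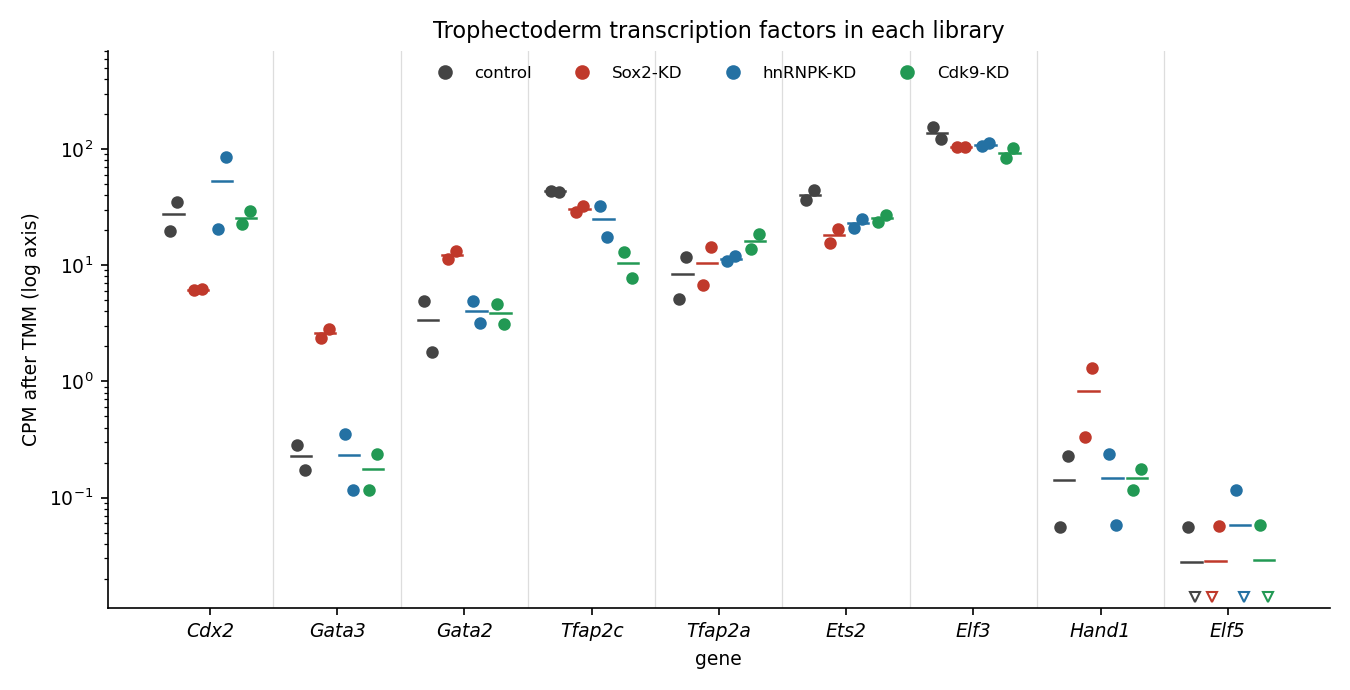
CPM after TMM scaling (log axis) of each factor in the 8 libraries, with a bar at the mean of each group and open triangles on the lower edge for libraries with no read. The Sox2-KD libraries stand apart from all others at 2.36 and 2.85 CPM for Gata3, at 11.3 and 13.2 CPM for Gata2 and at 6.1 and 6.22 CPM for Cdx2. They also do so for Hand1, at 0.33 and 1.31 CPM, and narrowly for Ets2, at 15.6 and 20.6 CPM against 20.9 CPM in the next library. Gata3 was tested through the Sox2-KD libraries alone, and the share of all genes with this pattern was not counted.

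The comparison of Sox2-KD with control asked which trophectoderm factors change when SOX2 is lowered. Of the 9 factors, Gata3 and Gata2 were called higher and Ets2 lower, by the rule used throughout, which asks for an adjusted p below 0.05 together with a log2FC beyond 0.6 in either direction. Over all 16504 tested genes, 4.32% were called, 2.63% higher and 1.69% lower. Gata3 was tested through the Sox2-KD libraries alone and had to differ, and among the other 6 tested factors 1 was called higher, Gata2. Cdx2 was lower by a larger factor than Ets2 but missed the threshold, and Tfap2c, Elf3 and Tfap2a were not called.

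Gata3 (ENSMUSG00000015619.10, chr2:9857078-9890034, - strand of GRCm38) encodes the GATA factor that acts beside CDX2 in early trophectoderm. It had 43 and 50 reads in the Sox2-KD libraries against 5 and 3 in control, or 2.36 and 2.85 against 0.282 and 0.172 CPM. In the other knockdowns it had 2 and 4 reads (Cdk9-KD) and 6 and 2 reads (labelled hnRNPK-KD), so that only the Sox2-KD libraries were above 6. The log2FC was 3.48 (SE 0.62, edgeR adjusted p = 0.0103), an 11.2-fold rise with a 95% interval of 2.1 to 4.86 on the log2 scale. Gata3 passed the filter on low counts through the Sox2-KD libraries alone, so that among the genes tested it had to differ.

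Gata3 kept its call without Sox2-KD replicate 1 (adjusted p = 0.0313 in edgeR). It lost the call without control replicate 1 (log2FC 3.85, adjusted p = 0.0649), without control replicate 2 (3.17, adjusted p = 0.0997) and without Sox2-KD replicate 2 (3.34, adjusted p = 0.0654). Each of these edgeR fits leaves a group with a lone library, which is assumed to vary as the other groups do. Exons of the coding gene 9230102O04Rik and the antisense gene Gm13256 overlap 1.9% and 3.9% of the exon bases of Gata3, and each of these genes had at most 1 read in any library.

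Gata2 (ENSMUSG00000015053.14, chr6:88193891-88207032, + strand) is known for its part in trophoblast giant cells and in blood. It had 206 and 231 reads in Sox2-KD against 88 and 31 in control, or 11.3 and 13.2 against 4.96 and 1.78 CPM. The other knockdowns, at 3.13 to 4.87 CPM, lay within the range of the control libraries. The log2FC was 1.86 (SE 0.43, edgeR adjusted p = 0.0404), a 3.63-fold rise. The control libraries differed from each other by more than the Sox2-KD libraries did. With control replicate 1 left out the log2FC was 2.76 (edgeR adjusted p = 0.0262), and with control replicate 2 left out it was 1.3 (adjusted p = 0.198). The call was also lost without Sox2-KD replicate 1 (1.96, adjusted p = 0.0917 in edgeR) and replicate 2 (1.74, adjusted p = 0.195), and in the fit with no filter (1.82, adjusted p = 0.0512).

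Ets2 (ENSMUSG00000022895.16, chr16:95702075-95721051, + strand), an ETS factor needed for trophoblast development, had 283 and 361 reads in Sox2-KD against 649 and 777 in control. These are 15.6 and 20.6 against 36.5 and 44.5 CPM, the lowest values of the gene in any library. The log2FC was -1.16 (SE 0.20, edgeR adjusted p = 0.0131), a 2.24-fold fall. Without control replicate 2 the log2FC was -1.02 (edgeR adjusted p = 0.105) and without Sox2-KD replicate 1 it was -0.99 (adjusted p = 0.0772), and the call was lost in both.

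Cdx2 (ENSMUSG00000029646.3, chr5:147300805-147307270, - strand), whose window with the octamer is shown above, had 111 and 109 reads in Sox2-KD against 351 and 613 in control. All 6 libraries outside Sox2-KD were at 19.8 CPM or more, and the Sox2-KD libraries were at 6.1 and 6.22 CPM. The log2FC was -2.15 (SE 0.53, 95% interval -3.33 to -0.98), 4.45-fold lower, with an edgeR adjusted p of 0.0521, which missed the threshold. Of 8 alternative settings, 4 put it past the threshold, over a range of adjusted p from 0.00163 to 0.054. With a library left out, its log2FC was between -2.53 and -1.69 and no fit called it.

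Tfap2c (ENSMUSG00000028640.11, chr2:172549593-172558622, + strand) was at 28.7 and 32.5 CPM in Sox2-KD against 43.4 and 43 CPM in control (log2FC -0.50, SE 0.29, edgeR adjusted p = 0.398). Elf3 (ENSMUSG00000003051.13, chr1:135253575-135258568, - strand) was at 105 CPM in both Sox2-KD libraries against 155 and 122 CPM in control (log2FC -0.40, SE 0.16, edgeR adjusted p = 0.203). For both, the groups did not overlap, and the 95% intervals of the log2FC were -1.14 to 0.15 and -0.75 to -0.05. The share of all tested genes without overlap was not counted. Tfap2a (ENSMUSG00000021359.16, chr13:40715302-40738376, - strand), the AP-2 factor of neural crest and trophoblast, overlapped between the groups at 6.7 and 14.3 against 5.07 and 11.7 CPM. Its log2FC was 0.32 (SE 0.42, 95% interval -0.60 to 1.24, edgeR adjusted p = 0.728). The antisense genes Gm26688, Gm47061 and Gm47067 cover 7.8%, 5.4% and 1.5% of the exon bases of Tfap2a, and Gm26642 covers 7.3% of those of Elf3. The strand setting of the counting is not given in the sources used here, so that reads of these pairs cannot be told apart.

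Hand1 (ENSMUSG00000037335.13, chr11:57828705-57832818, - strand) had 6 and 23 reads in the Sox2-KD libraries and 1 to 4 in each of the others. With no filter its log2FC was 2.42 (edgeR adjusted p = 0.241), and the rise in replicate 2 was not shared to the same degree by replicate 1. Elf5 (ENSMUSG00000027186.14, chr2:103411688-103450989, + strand), a factor whose promoter is methylated in ESCs, had at most 2 reads in any library. A change of Elf5 was not detectable at this depth.

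**Figure D2:**
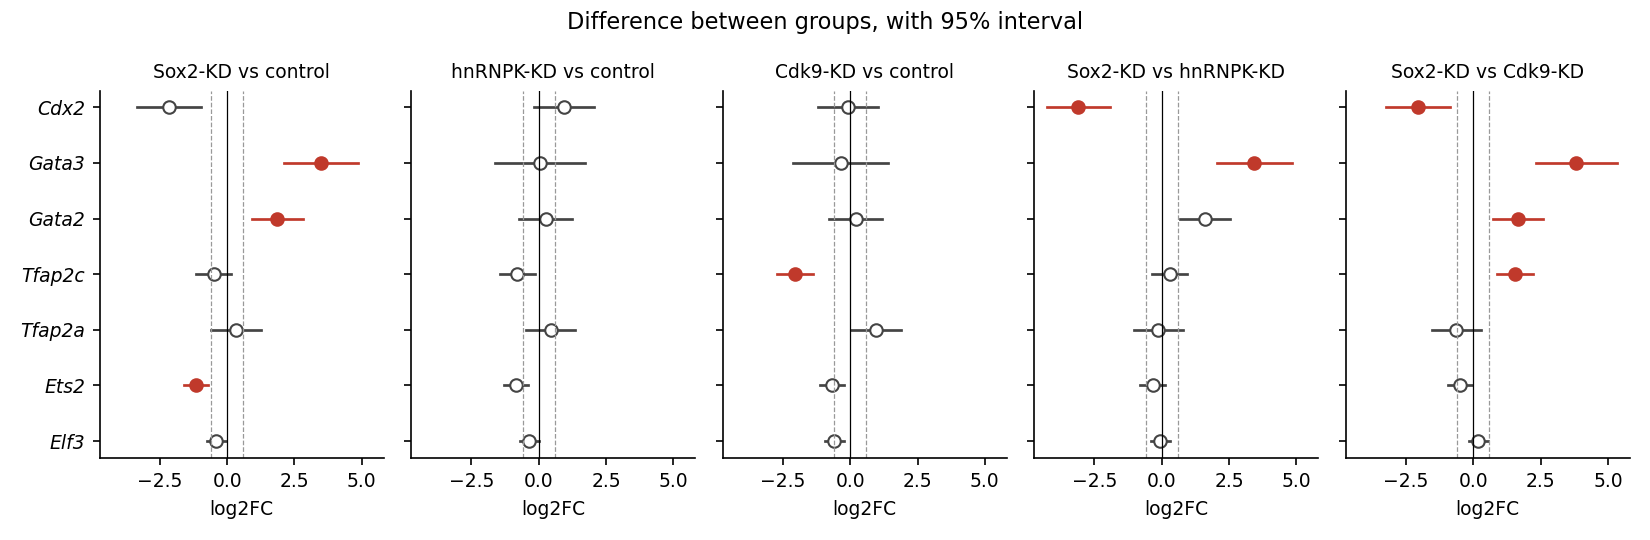
Log2FC (points) with 95% intervals (lines) of the 7 tested factors in 5 comparisons, filled red where called, with dashed lines at the fold threshold of 0.6. In Sox2-KD against control Gata3 and Gata2 lie to the right and Ets2 to the left, and Tfap2c is the called factor in Cdk9-KD against control.

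The comparison of Cdk9-KD with control asked what follows when the elongation kinase is lowered. The fall of the Cdk9 mRNA was itself not called by the rule (log2FC -0.91, edgeR adjusted p = 0.0985). Of the 9 factors, Tfap2c fell and the others were not called, while 0.139% of all tested genes were called, or 23 genes. Tfap2c, the AP-2 factor of trophoblast and germ cells, had 225 and 132 reads against 771 and 751 in control, or 13.1 and 7.81 against 43.4 and 43 CPM. The Cdk9-KD libraries were the lowest of the 8 and the control libraries the highest. The log2FC was -2.04 (SE 0.30, edgeR adjusted p = 0.0416), a 4.12-fold fall, and the 95% interval was -2.71 to -1.38. The call was lost in edgeR without control replicate 1 (-2.08, adjusted p = 0.0836), without control replicate 2 (-2.08, adjusted p = 0.179) and without Cdk9-KD replicate 2 (-1.72, adjusted p = 0.181).

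The remaining factors in Cdk9-KD gave smaller values. Tfap2a was at 13.9 and 18.7 CPM against 5.07 and 11.7 CPM in control (log2FC 0.95, SE 0.41, edgeR adjusted p = 0.461). Ets2 was at 23.6 and 27.1 CPM against 36.5 and 44.5 CPM (log2FC -0.68, SE 0.20, edgeR adjusted p = 0.292). Elf3 was at 83.9 and 101 CPM against 155 and 122 CPM (log2FC -0.59, SE 0.16, edgeR adjusted p = 0.235). These groups did not overlap, yet the differences failed the adjustment. How many of all tested genes had groups without overlap was not counted, so that this is a description. Cdx2, at 22.4 and 29 CPM, lay inside the control range, with a log2FC of -0.09 and a 95% interval of -1.21 to 1.02. Gata2 had a log2FC of 0.20 and Gata3 of -0.35, with adjusted p = 0.925 in edgeR for both.

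With the libraries labelled hnRNPK-KD, none of the 9 factors was called against control, and neither was any tested gene (0%), although 1325 genes had an unadjusted p under 0.05 in edgeR. DESeq2 called 83 genes, and Ets2 among them (log2FC -0.84, adjusted p = 0.0495). Ets2 was at 20.9 and 24.8 CPM against 36.5 and 44.5 CPM in control, with a log2FC of -0.83 (SE 0.20, edgeR adjusted p = 0.361). Tfap2c was at 32.5 and 17.5 CPM against 43.4 and 43 CPM, with a log2FC of -0.79 (SE 0.29, edgeR adjusted p = 0.539). For both genes all libraries of the group were below both control libraries, and the share of all tested genes without overlap was not counted.

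Cdx2 differed between the replicates labelled hnRNPK-KD. It had 346 reads (20.3 CPM) in replicate 1, where Hnrnpk was lower, and 1463 reads (85.1 CPM) in replicate 2, where Hnrnpk was not. The log2FC against control was 0.94 (SE 0.50, edgeR adjusted p = 0.693) and was -0.46 without replicate 2, so that its sign rests on that library. Gata2, Gata3 and Tfap2a had log2FC values of 0.26, 0.04 and 0.45, and Elf3 of -0.35, with edgeR adjusted p from 0.628 to 0.994.

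Ets2, Elf3 and Tfap2c were at their highest in the control libraries, above every library of every knockdown group. Ets2 was at 15.6 to 27.1 CPM in the 6 knockdown libraries, Elf3 at 83.9 to 112 CPM and Tfap2c at 7.81 to 32.5 CPM. The comparisons behind this pattern share the same 2 control libraries, so that they do not repeat one another. Among them, only Ets2 in Sox2-KD and Tfap2c in Cdk9-KD were called. The share of all tested genes with this pattern was not counted, so that it is a description.

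Sox2-KD was also compared with the other knockdowns, and the difference itself uses no control library. The filter, the scaling and the estimate of the spread still came from the fit of all 8 libraries. Against the libraries labelled hnRNPK-KD, Cdx2 fell (log2FC -3.1, SE 0.53, edgeR adjusted p = 0.0129) and Gata3 rose (3.44, SE 0.62, adjusted p = 0.00991), while 5.9% of all tested genes were called. Gata3, which passed the filter on low counts through the Sox2-KD libraries alone, had to differ here as well. Gata2 was at a log2FC of 1.6 (SE 0.43, edgeR adjusted p = 0.0568), and 5 of 8 alternatives called it. Both calls were lost without hnRNPK-KD replicate 2, with log2FC values of -1.71 for Cdx2 and 2.88 for Gata3 (edgeR adjusted p = 0.0501 and 0.0952). They were also lost without Sox2-KD replicate 2, at -3.11 and 3.3 (edgeR adjusted p = 0.111 and 0.0769). Ets2, with a log2FC of -0.34 and a 95% interval of -0.79 to 0.12, was not called.

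Against Cdk9-KD, 4 of the 9 factors were called in Sox2-KD, beside 7.33% of all tested genes. Gata3 rose by 3.83 (SE 0.68, adjusted p = 0.00487 in edgeR) and Gata2 by 1.66 (SE 0.43, adjusted p = 0.0442) on the log2 scale. Tfap2c was 2.92-fold higher in Sox2-KD than in Cdk9-KD (log2FC 1.55, SE 0.30, edgeR adjusted p = 0.0135). Cdx2 was 4.17-fold lower (log2FC -2.06, SE 0.53, edgeR adjusted p = 0.0449). Gata3 passed the filter through the Sox2-KD libraries alone, so that here too it had to differ. With each of the 4 libraries left out in turn, its log2FC was 3.44 to 4.39. Gata2 and Cdx2 lost their calls in each of these fits, at log2FC values of 1.4 to 1.98 and -2.21 to -1.87. Tfap2c lost its call without Cdk9-KD replicate 2 (1.21, edgeR adjusted p = 0.0863) and Sox2-KD replicate 2 (1.45, adjusted p = 0.0856).

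**Figure D3:**
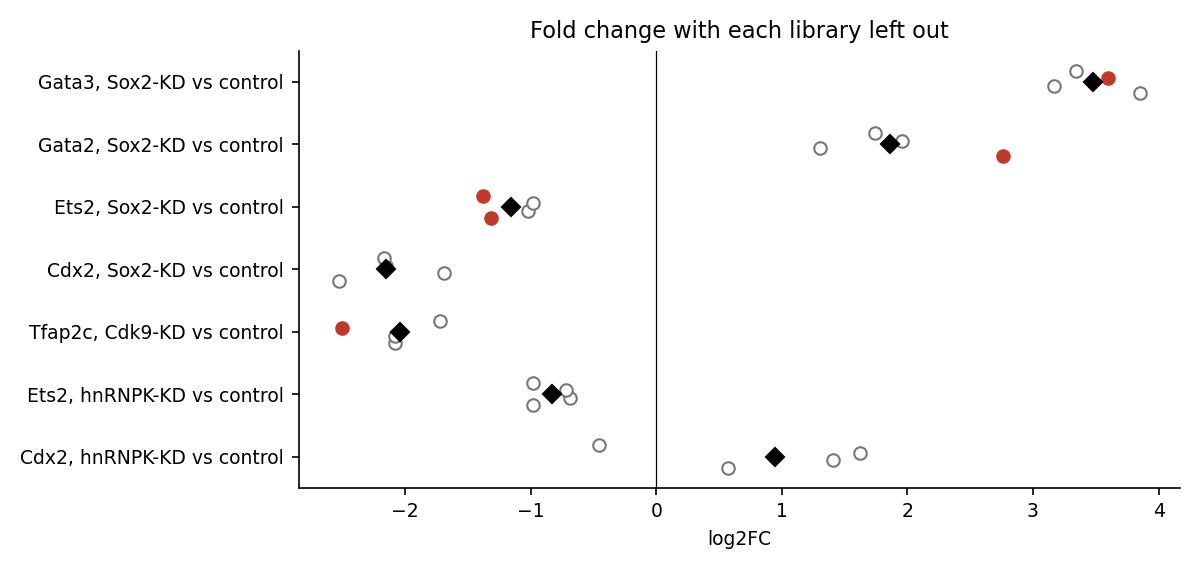
Log2FC of selected factors with all 8 libraries (black diamonds) and with each of the 4 libraries compared left out in turn (circles, red where still called). Signs held in each row except Cdx2 of the group labelled hnRNPK-KD, whose value without replicate 2 is -0.46.

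Among 20 other regulators of trophectoderm and trophoblast stem cells, 18 were tested. In Sox2-KD 4 of them were called higher and none lower, beside 2.63% and 1.69% of all tested genes. The median log2FC of the 18 was 0.295 against 0.0214 over all tested genes. Bmp4, a signal that drives trophoblast genes, rose from 17.4 and 27.6 to 58.5 and 65.5 CPM (log2FC 1.46, SE 0.23, edgeR adjusted p = 0.00948). Fgfr2, the receptor through which FGF4 keeps trophoblast stem cells, rose from 0.563 and 0.458 to 4.07 and 3.42 CPM (log2FC 2.86, SE 0.52, edgeR adjusted p = 0.0141). Eomes, the T-box factor of trophoblast stem cells, rose from 3.83 and 2.58 to 8.96 and 9.25 CPM (log2FC 1.5, edgeR adjusted p = 0.0166). Esx1, a placental homeobox factor, rose from 0.619 and 0.917 to 3.24 and 3.42 CPM (log2FC 2.11, edgeR adjusted p = 0.0214). Without control replicate 1 or Sox2-KD replicate 2 none of the list was called higher, and without either of the other libraries 1 was. With at least 10 reads asked of every library, which removes Fgfr2 and Esx1 from the test, 2 were called. Over the alternative settings that left out no single library, the number called higher was 2 to 6.

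In Cdk9-KD, Eomes and Bmp4 were the 2 regulators called, both higher, while 0.139% of all tested genes were called. Eomes was at 19.5 and 14.3 CPM (log2FC 2.39, SE 0.28) and Bmp4 at 88.3 and 87.8 CPM (log2FC 1.97, SE 0.23), with edgeR adjusted p = 0.0191 for both. Both were above all other libraries, those of Sox2-KD included. Without either control library none was called, and without Cdk9-KD replicate 2 only 1 was. In the libraries labelled hnRNPK-KD none was called, though Bmp4 was at 49.2 and 71.5 CPM (log2FC 1.43, SE 0.23, edgeR adjusted p = 0.173). Eomes was at 8.09 and 7.92 CPM there (log2FC 1.32, SE 0.28, edgeR adjusted p = 0.304). Both genes lay above both control libraries, and the share of all tested genes without overlap was not counted. Each knockdown was compared with the same 2 control libraries, so that these rises do not repeat one another.

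Of 12 epithelial genes of trophectoderm, 8 were called higher in Sox2-KD and none lower, beside 2.63% and 1.69% of all tested genes. As for Gata3, 3 of these (Krt7, Tspan8 and Dppa1) passed the filter through the Sox2-KD libraries alone and had to differ, and among the other 9 genes 5 were called higher. Krt8 and Krt18, the keratin pair of simple epithelia, rose from 18.4 and 17.4 to 97.1 and 182 CPM (log2FC 2.97, SE 0.29, edgeR adjusted p = 0.00232) and from 3.27 and 2.86 to 41.4 and 82.7 CPM (log2FC 4.34, SE 0.49, edgeR adjusted p = 0.00282). Lrp2, an endocytic receptor, rose from 9.4 and 10.4 to 45.7 and 35.7 CPM (log2FC 2.04, edgeR adjusted p = 0.00948). Dppa1, tested through the Sox2-KD libraries alone, had 66 and 86 reads there against 1 and 0 in control. Without control replicate 1 or control replicate 2 the number called was 3, without Sox2-KD replicate 2 it was 4, and without Sox2-KD replicate 1 it was 7. With at least 10 reads asked of every library, which removes Krt7, Tspan8 and Dppa1 from the test, it was 5. None of the 12 was called in Cdk9-KD or in the libraries labelled hnRNPK-KD. Of the endoderm markers described below, Dab2 and Gata6 were also called higher in Sox2-KD and Lama1 lower.

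Of 19 genes of differentiated trophoblast and placenta, 9 were tested, and 5 were called higher in Sox2-KD, beside 2.63% of all tested genes. Of these 5, Gcm1, Rhox6 and Rhox9 passed the filter through the Sox2-KD libraries alone and had to differ, and among the 5 tested genes that did not depend on them 2 were called higher, Peg10 and Cdkn1c. Peg10, an imprinted gene needed for the placenta, rose from 129 and 89 to 1280 and 859 CPM (log2FC 3.29, SE 0.50, edgeR adjusted p = 0.0103), and it was also at 767 CPM in replicate 2 labelled hnRNPK-KD. Rhox9 and Rhox6, homeobox genes of the X-linked Rhox cluster, had 45 and 79 reads against 4 and 3 in control and 107 and 102 reads against 8 and 5. These paralogs are alike in sequence, and how shared reads were counted is not given, so that their counts are uncertain. Cdkn1c, a cell cycle inhibitor, rose from 1.63 and 0.917 to 3.3 and 5.88 CPM (log2FC 1.84, edgeR adjusted p = 0.0414). In contrast, 7 genes of the list, among them Tpbpa and Prl3d1 of the spongiotrophoblast and giant cells, had no read in any library. With a library left out, 0 to 3 of the list were called higher, with 0 without either control library and 1 without Sox2-KD replicate 2. The number was 3 under a replicate block or without a filter. It was 2 with at least 10 reads asked of every library, which removes Gcm1, Rhox6 and Rhox9 from the test.

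**Figure D4:**
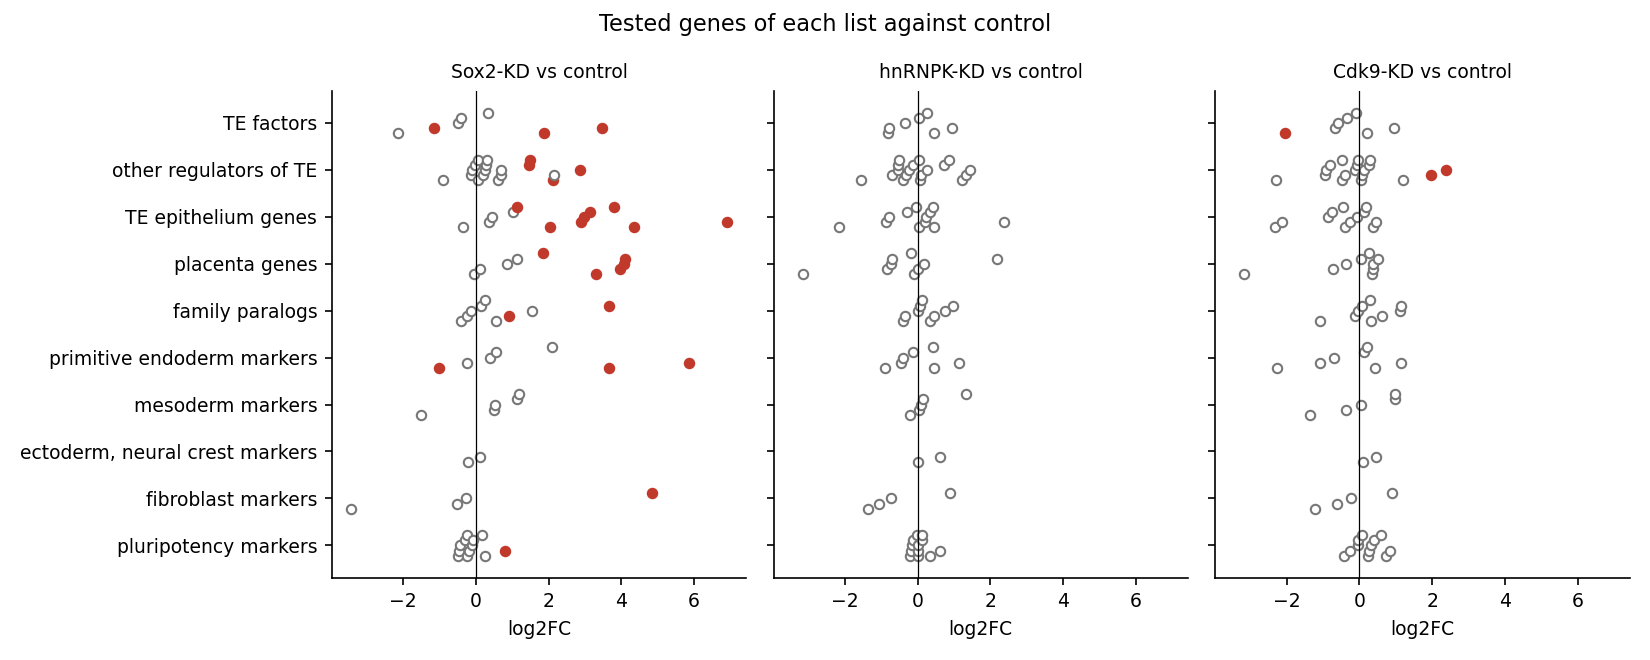
Log2FC of the tested genes of each list in each knockdown against control, filled red where called. In Sox2-KD 8 of 12 trophectoderm (TE) epithelium genes are called higher, beside 2.63% of all tested genes. Of these 8, 3 were tested through the Sox2-KD libraries alone. No gene of any list, nor any other tested gene, is called with the label hnRNPK-KD.

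Among 15 paralogs of the 9 factors, 9 were tested and 2 were called higher in Sox2-KD, beside 2.63% of all tested genes. Gata6, the GATA factor of primitive endoderm, had 49 and 68 reads against 4 and 5 in control, and it passed the filter through the Sox2-KD libraries alone, so that it had to differ. Elf1, an ETS factor of many tissues, rose from 12.6 and 18.7 to 27.1 and 31.5 CPM (log2FC 0.91, SE 0.22, edgeR adjusted p = 0.0479). Without either control library or Sox2-KD replicate 2 neither was called, and the number was 1 with DESeq2 size factors, no filter or only the 4 libraries compared, and 0 with at least 10 reads asked of every library. That last filter removes Gata6 from the test. Cdx1 and Gata4 were not called, and Gata5 and Tfap2b had no read in any library.

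Markers of other cell types were read beside these results, with 2.63% of all tested genes called higher and 1.69% lower in Sox2-KD. Of 10 primitive endoderm markers 7 were tested, and in Sox2-KD Dab2, an endocytic adaptor, rose from 0.676 and 0.859 to 35 and 54.2 CPM (log2FC 5.85, SE 0.40, edgeR adjusted p = 0.000187) while Lama1 fell (log2FC -1.01, SE 0.20, edgeR adjusted p = 0.0215). Gata6, described above, was the other marker called higher. This list summed to 139 and 223 CPM in Sox2-KD and to 232 to 256 CPM in control, nearly all of it in control from Lama1 (217 and 243 CPM), and without Lama1 it summed to 49.8 and 84.6 CPM in Sox2-KD against 13.5 and 14.8 CPM. Afp had at most 1 read in these libraries. Among 7 fibroblast markers Lum was called higher, with 23 and 13 reads against 0 and 1, but it too was tested through the Sox2-KD libraries alone and had to differ, and the list summed to 4.62 and 5.27 CPM in Sox2-KD and to 4.98 and 6.19 CPM in control. None of the 5 tested mesoderm markers or the 2 tested surface ectoderm and neural crest markers was called, and their sums were 12.9 and 17.9 CPM in Sox2-KD against 15.5 and 32.5 CPM, and 24.1 and 36.5 against 22.7 and 33 CPM. Nearly all of the latter sum came from Foxd3, and without it the list summed to 2.47 and 2.8 CPM in Sox2-KD against 1.8 and 2.46 CPM in control. In the mesoderm sum, T was at 9.56 and 3.31 CPM in Sox2-KD against 10.5 and 26.1 CPM in control. Without T the mesoderm list summed to 8.34 and 9.58 CPM in Sox2-KD against 4.96 and 6.42 CPM. Of the 12 pluripotency markers Utf1 alone was called (log2FC 0.80, SE 0.18, edgeR adjusted p = 0.0328), and it was higher. Only 3 of the 12 had a positive log2FC in Sox2-KD, and their median was -0.221 against 0.0214 over all tested genes. With a library left out, 1 to 2 endoderm markers were called higher and 0 to 1 lower, and neither Lum nor Utf1 was called. Asking at least 10 reads of every library removes Dab2, Gata6 and Lum from the test, and no endoderm or fibroblast marker was then called higher. DESeq2 did not call Lum, and without a filter Utf1 was not called. The part of other cell types in the values of the 9 factors was not tested.

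For each tested factor, the genes with the most similar profile over the 8 libraries were named, by the root-mean-square difference in log2 CPM centred on the control mean, among 12513 genes. Gata3 was followed most closely by Plaur (0.471), Krt8 (0.473) and Cldn7 (0.475), against a median difference of 1.57 over all these genes. Gata2 was followed by Pwwp2b (0.146), Prss8 (0.301) and Slc4a9 (0.31), with a median of 1.14. Cdx2 was followed by Jag1 (0.357), Eml1 (0.382) and Slc6a15 (0.418), with a median of 1.25. For Ets2 the closest were Hsf2bp (0.169), Rassf2 (0.222) and Psma8 (0.24). For Tfap2c they were Gm18336 (0.328), Xlr3c (0.35) and Gm650 (0.351), of which Xlr3c belongs to a family of near-identical copies and is uncertain. Elf3 was closest to Gm2223 (0.108), Paqr3 (0.111) and Scaper (0.117), and Tfap2a to Myl6b (0.274), Gm42595 (0.313) and Lrmp (0.317). The 8 libraries share their control and depth, so that these likenesses are a description with no test.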

How the data were processed

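The authors deposited raw gene counts by library, not scaled or pooled. Per the paper's methods, reads were trimmed with Trimmomatic. The submitters' processing notes name FastQC, STAR 2.7.9a and featureCounts 2.0.1 on GRCm38 (mm10). Strand setting and treatment of multi-mapping reads are not given in the sources used here. All 8 columns were matched to a library by name. Genes with few counts were removed by filterByExpr, at a minimum count of 10 and a total of 15, and the rest were tested with edgeR 4.0.16 in R 4.3.3: TMM, a group term over all 8 libraries, the quasi-likelihood test, and adjustment over 16504 genes by Benjamini-Hochberg. Called means an adjusted p below 0.05 together with a log2FC beyond 0.6 in either direction, as in the paper. Standard errors are Wald errors of that model. CPM uses TMM-scaled totals. P-values rest on 2 replicates a group, which differed by more than counting noise (chi-square per gene 16.6 to 30, where noise alone gives about 1).

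Loci, exon lengths and overlaps came from GENCODE vM21, whose version differs from the vM23 of the counts, and promoters from RefSeq. The 9 factors, the gene lists and the tests were chosen with earlier results of these data known. All 9 factors, the targeted genes, up to 4 called genes of each list by smallest adjusted p in Sox2-KD (2 in the other groups) and the 3 closest profiles of each factor are named, and other genes were named after their values were seen. Alternatives were DESeq2 1.42.0, its size factors in edgeR, library totals, the likelihood ratio test, unfiltered counts, a filter of 10 counts in each library, fits on the 4 libraries of a comparison, a replicate block, no fold threshold, and each library left out. The fits were tested on simulated data. Figures used matplotlib 3.10.9 in Python 3.11.15.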

Additional observations from a re-analysis of the deposited data

How the results depend on the processing

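The 2 replicates a group set the limit: with 1 library left out, the number of the 9 factors called was 0 to 2 in Sox2-KD against control (0 without control replicate 2), 0 to 1 in Cdk9-KD against control, 0 in the libraries labelled hnRNPK-KD, 0 to 2 in Sox2-KD against those libraries and 1 to 2 in Sox2-KD against Cdk9-KD. The number of all genes called was 144 to 343, 0 to 32, 0 to 1, 90 to 875 and 337 to 863 in the same order, against 713, 23, 0, 974 and 1210 with all libraries. Among values that were not called, signs turned with a library left out for Tfap2a in Sox2-KD (-0.33 to 1.04), and for Cdx2 (-0.46 to 1.62), Gata2 (-0.31 to 1.16), Gata3 (-0.93 to 0.59) and Tfap2a (-0.058 to 1.16) in the libraries labelled hnRNPK-KD, and for Cdx2 (-0.49 to 0.35), Gata2 (-0.38 to 1.08) and Gata3 (-0.92 to 0.027) in Cdk9-KD. In Sox2-KD against the libraries labelled hnRNPK-KD they turned for Tfap2a (-0.77 to 0.31), Tfap2c (-0.074 to 0.81) and Elf3 (-0.093 to 0.0017). Library totals in place of TMM turned Elf3 in that comparison to 0.057.

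The likelihood ratio test called 1350 genes for Sox2-KD against control, 87 for the group labelled hnRNPK-KD and 279 for Cdk9-KD, and 1690 and 1869 for Sox2-KD against these groups. DESeq2 called 83 genes and 1 factor (Ets2) in the libraries labelled hnRNPK-KD, and 222 genes in Cdk9-KD. With no filter, 1 gene was called in the libraries labelled hnRNPK-KD. With at least 10 counts in every library, which removes Gata3, the factors called were 1 in Sox2-KD against the libraries labelled hnRNPK-KD and 2 against Cdk9-KD. The number of all genes called under that filter is not given beside these counts, so that they are not set against a background. That filter and DESeq2 each ended the call of Cdx2 in Sox2-KD against Cdk9-KD, and no filter that of Gata2.

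Samples share only a replicate number: deviations of same-numbered libraries correlated between -0.223 and 0.21 over the 6 pairs of groups. With the number as a block, 4, 0, 1, 3 and 4 of the 9 factors were called for control against Sox2-KD, the group labelled hnRNPK-KD and Cdk9-KD and for Sox2-KD against the other knockdowns in the same order, beside 695, 0, 15, 905 and 1165 of all genes. A crossed block for Sox2-KD against Cdk9-KD, chosen after seeing the data, called 4 factors and 2021 genes. The counts of factors for Sox2-KD under these blocks include Gata3, which was tested through the Sox2-KD libraries alone.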
